A study of Rattus norvegicus with 8 samples.

Results

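The growth hormone and insulin-like growth factor axis of rat liver was followed through 10 genes: Ghr, Prlr, Stat5b, Socs2, Igf1, Igfals, Igfbp1, Igfbp2, Igfbp4 and A1bg. Members were all probes whose RefSeq accession leads to one of these symbols, which gave 14 of the array's 30367 probes, 3 for Ghr, 2 each for Igf1 and Igfbp2 and 1 for each other gene. Every member was among the 15200 genes and unnamed features tested. The livers came from adult male Sprague-Dawley rats, 4 on a control diet and 4 on feed to which PFOS, the surfactant perfluorooctanesulfonate given as its potassium salt, was added at 50 mg/kg, each for 28 days. Each rat had its own two-colour array, on which its liver RNA carried Cy5 and the same universal rat reference RNA carried Cy3 throughout. With 1 liver sample per rat, no value here follows the pulses of growth hormone over the day.

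Growth hormone from the pituitary binds its receptor on hepatocytes, which activates the kinase JAK2 and the transcription factor STAT5b. STAT5b induces Igf1, its plasma partner Igfals and the feedback inhibitors Socs2 and Cish. Insulin-like growth factor binding proteins set how much IGF1 is free. In rats the pattern of growth hormone secretion differs between the sexes, and genes such as Prlr and A1bg are known for higher expression in female than in male liver.

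The 8 arrays lay on 1 slide. Median Cy5 brightness was 116 to 160 units over a local background of 71 to 75, and the 4 arrays of slide row 1, 2 of each group, were brighter (154.5 to 160) than those of row 2 (116 to 138). All 8 hepatocyte markers, among them Alb, Ttr and Apob, were well above background on every array, and none was called by limma in the ratio (1 at an unadjusted p under 0.05) or in Cy5. None of 8 Kupffer cell and 5 sinusoidal endothelial markers was called by limma in the ratio or in Cy5. An unadjusted ratio p under 0.05 was found for 1 and 3 of them, against 19.9% of all genes. All 13 Kupffer and endothelial ratio changes were below 0, with medians of -0.36 and -0.48. Below 0 were also 6 of 8 hepatocyte, 5 of 8 stellate cell and all 4 tested leukocyte markers, and 7949 of all 15200 genes. All 3 tested bile duct markers were above 0. None of the stellate cell, leukocyte and bile duct markers was called by limma. The summed Cy5 signal of the Kupffer list was 20878 to 34397 units in control and 17841 to 29879 in PFOS, and that of the endothelial list 9292 to 16243 and 7014 to 9969. Their part in the member results was not tested, and in whole liver fewer cells of a type and less RNA per cell cannot be told apart.

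Promoter sequences were taken from RefSeq on the GRCr8 build for Ghr, Prlr, Stat5b, Igf1, Igfals, Igfbp1, Igfbp2, Igfbp4 and A1bg. Prlr had a pair, while Socs2 had no promoter entry and was not searched. Each window runs from 250 bases before to 50 bases after a gene start. The motif TTCNNNGAA, the type that STAT5 binds, stood in the windows of 2 of these 9 genes, A1bg and Prlr. For Prlr it stood in the second window only. Of 33469 promoter windows of this length, 8.87% hold it. The motif CAAAACA, of the type that FOXO factors bind and searched on both strands, stood in the windows of Prlr, Igf1 and Igfbp1 and in 6.28% of all windows. Both motifs were searched as letters, with no test of binding. Shown 5′ to 3′ are the windows of A1bg (chr7:94387447-94387746, minus strand), Prlr (its second window, chr2:60909409-60909708, plus strand) and Igfbp1 (chr14:86261027-86261326, plus strand), since these are the genes whose values spread most within a group. Capitals mark the STAT5-type motif in A1bg and Prlr and the FOXO-type motif in Igfbp1.
A1bg: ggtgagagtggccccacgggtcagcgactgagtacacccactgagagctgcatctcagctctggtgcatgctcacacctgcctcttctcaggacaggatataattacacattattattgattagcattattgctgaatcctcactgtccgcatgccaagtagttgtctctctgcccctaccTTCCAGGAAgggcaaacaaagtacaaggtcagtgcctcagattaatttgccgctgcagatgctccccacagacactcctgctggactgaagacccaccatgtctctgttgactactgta
Prlr: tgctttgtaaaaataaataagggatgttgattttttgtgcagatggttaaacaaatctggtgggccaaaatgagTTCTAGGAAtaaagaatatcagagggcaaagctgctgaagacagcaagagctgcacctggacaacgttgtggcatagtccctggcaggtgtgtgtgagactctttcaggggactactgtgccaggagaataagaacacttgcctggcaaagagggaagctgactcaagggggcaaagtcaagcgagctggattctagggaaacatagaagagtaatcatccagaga
Igfbp1: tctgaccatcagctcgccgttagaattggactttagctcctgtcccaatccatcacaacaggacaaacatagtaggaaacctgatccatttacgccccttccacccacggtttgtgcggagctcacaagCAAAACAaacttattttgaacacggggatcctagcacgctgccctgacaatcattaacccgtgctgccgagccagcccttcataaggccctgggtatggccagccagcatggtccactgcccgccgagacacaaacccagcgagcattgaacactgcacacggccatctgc

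The comparison of diets asked whether PFOS changed the transcripts of this axis. Of the 10 members 1 was called, Socs2, which rose, in a comparison that called 3.99% of all genes tested (limma, Benjamini-Hochberg adjusted p under 0.05 over 15200), 1.84% higher and 2.14% lower in PFOS. The other 9 did not pass, and 6 of the 10 had an unadjusted limma p under 0.05, as did 19.9% of all genes. The changes, PFOS minus control in the log2 ratio of Cy5 over Cy3, had a median of -0.18 over the members and -0.01 over all genes, with 3 members above 0 and 7 below. Groups did not overlap for Ghr (at its brightest probe only), Socs2 and A1bg, 3 of 10, against 12.8% of all genes. Without 1 array at a time the number of members called was between 0 and 2.

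**Figure D1:**
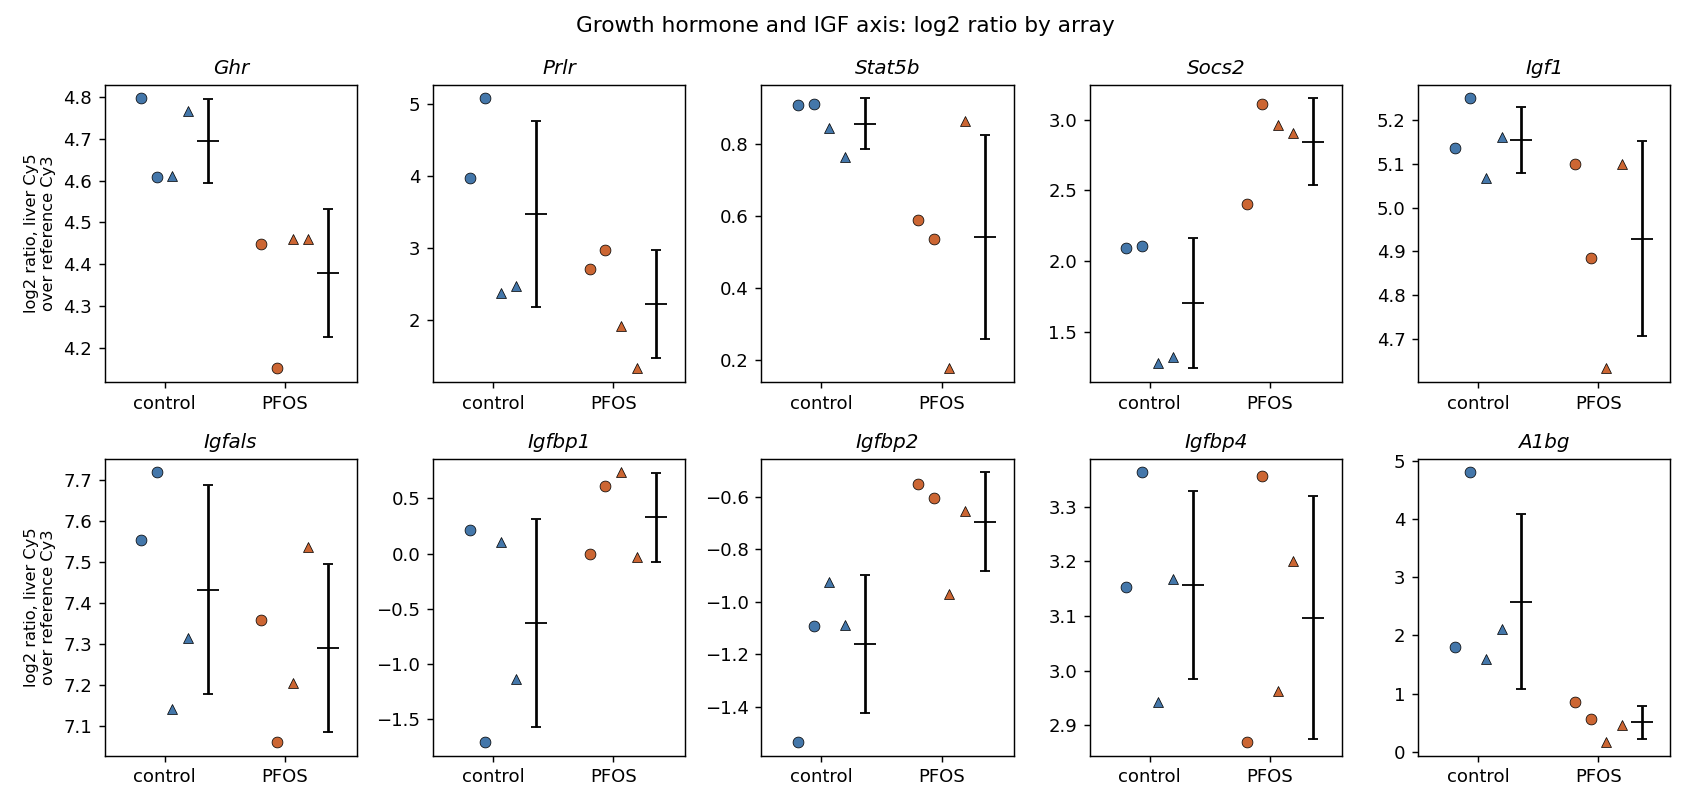
Log2 ratio of liver Cy5 over reference Cy3 (vertical axis, a separate scale for each gene) on the 4 control and 4 PFOS arrays, circles for slide row 1 and triangles for row 2, with the mean and SD of each group beside them. Socs2 is higher on all PFOS arrays than on any control array. Ghr (brightest probe) and A1bg are lower, while the groups overlap for the other 7 genes.

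Ghr encodes the receptor at the head of the axis. Its brightest probe had log2 ratios of 4.80, 4.61, 4.61 and 4.77 in control and 4.45, 4.15, 4.46 and 4.46 in PFOS. The groups did not overlap, and PFOS 2 was the lowest array. The change was -0.32 (SE 0.10, 95% interval -0.54 to -0.10, limma adjusted p = 0.117), which did not pass. A second Ghr probe read 4.55, 5.04, 4.56 and 4.76 in control and 5.03, 3.88, 4.46 and 4.83 in PFOS, and the third 4.72, 4.84, 4.62 and 4.84 against 4.96, 3.88, 4.76 and 4.92. On both of these the groups overlapped and PFOS 2 was again lowest, with changes of -0.18 (SE 0.22) and -0.13 (SE 0.21). All 3 changes were below 0, but the probes differed in the spread of the PFOS arrays. On the other 2 probes PFOS 1 and PFOS 4 were above the control means of 4.73 and 4.76. PFOS 3 was at 4.46 and 4.76 there, so the sign of these changes rested on PFOS 2. The brightest probe alone had groups apart, and without PFOS 2 it gave -0.24. The mean of the probes gave -0.21 (SE 0.17). After scaling between arrays the brightest probe gave -0.17.

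Prlr, the prolactin receptor and a relative of Ghr, had log2 ratios of 3.97, 5.08, 2.37 and 2.47 in control and 2.70, 2.97, 1.91 and 1.32 in PFOS. Control 1 and control 2 were highest, PFOS 4 was lowest, and the groups overlapped. The change was -1.25 (SE 0.61, 95% interval -2.62 to 0.12, limma adjusted p = 0.291), which was -0.72 without control 2. Both groups were higher in slide row 1 than in row 2, by 2.11 in control and 1.22 in PFOS. Within row 1 Prlr changed by -1.69 and within row 2 by -0.81, with 2 arrays of each group, and with row as a block the adjusted p was 0.0507. Slide row and differences between the animals in each row cannot be told apart.

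Stat5b, the transcription factor through which the receptor acts in liver, read 0.91, 0.91, 0.85 and 0.76 in control and 0.59, 0.54, 0.18 and 0.87 in PFOS. Of the PFOS arrays, 3 were below all control arrays and PFOS 4 was not. The change of -0.32 (SE 0.13, 95% interval -0.62 to -0.01, limma adjusted p = 0.23) did not pass, and without PFOS 3 it was -0.19. Its close relative Stat5a read -1.01, -0.73, -0.68 and -0.91 in control and -1.41, -1.39, -0.99 and -1.14 in PFOS, a change of -0.40 (SE 0.12, limma adjusted p = 0.11). The kinase gene Jak2 changed by -0.09 (SE 0.08, 95% interval -0.28 to 0.10).

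Socs2, a suppressor of cytokine signalling that damps the growth hormone receptor, was the member that rose. Its log2 ratios were 2.10, 2.11, 1.29 and 1.33 in control and 2.41, 3.11, 2.96 and 2.90 in PFOS. Every PFOS array was above every control array, with PFOS 1 nearest to the controls. The mean went from 1.71 ± 0.46 (SD, n = 4) to 2.84 ± 0.30 (SD, n = 4), a 2.20-fold rise (log2 change 1.14, SE 0.23, 95% interval 0.62 to 1.66, limma adjusted p = 0.0304). Its Cy5 signal alone, on the log2 scale, was 8.41, 8.34, 7.74 and 7.85 in control and 8.61, 9.48, 9.34 and 9.255 in PFOS, again without overlap. Cy5 rose by 1.09 (SE 0.21, limma adjusted p = 0.022), while Cy3 changed by 0.03.

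Socs2 no longer passed when any 1 of control 3, control 4, PFOS 2, PFOS 3 and PFOS 4 was dropped, with limma adjusted p-values of 0.0572 to 0.0786 and changes of 1.00 to 1.28 over all left-out arrays. The change was 0.65 within slide row 1, from 2.10 to 2.76, and 1.62 within row 2, from 1.31 to 2.93, with 2 arrays of each group. Row 1 controls were 0.80 above row 2 controls, and row 1 PFOS arrays were 0.17 below those of row 2. The test of whether the change differed between rows gave an unadjusted p of 0.0135 and a limma adjusted p of 0.983.

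Cish, the second STAT5-induced inhibitor, read 1.27, 1.25, 1.04 and 1.26 in control and 1.23, 1.24, 1.14 and 1.24 in PFOS. These values are from its brightest probe. The change there of 0.01 (SE 0.08) had a 95% interval of -0.17 to 0.18, which leaves out the size seen for Socs2. The mean of the Cish probes gave -0.12 (SE 0.18), a lower and less precise value. Socs3, induced mainly by STAT3, changed by -0.23 (SE 0.09, limma adjusted p = 0.221).

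Igf1, the growth factor that liver secretes under growth hormone, had log2 ratios of 5.14, 5.25, 5.07 and 5.16 in control and 5.10, 4.89, 4.63 and 5.10 in PFOS at its brighter probe. PFOS 2 and PFOS 3 were below all controls, and PFOS 1 and PFOS 4 lay among them. The change of -0.22 (SE 0.11, 95% interval -0.48 to 0.03, limma adjusted p = 0.311) did not pass, and was -0.13 without PFOS 3 and -0.07 after scaling between arrays. In the Cy5 channel alone the same probe changed by -0.05 (SE 0.07, 95% interval -0.21 to 0.11), and in Cy3 by 0.15. The second Igf1 probe, designed to another transcript accession, read 5.01, 5.05, 5.00 and 5.10 in control and 4.88, 4.79, 4.48 and 4.98 in PFOS. Its groups did not overlap in the ratio, but did in Cy5, and its changes were -0.26 (SE 0.11) in the ratio and -0.21 (SE 0.08) in Cy5. The 95% intervals of the second probe left out 0, at -0.49 to -0.02 in the ratio and -0.40 to -0.02 in Cy5. Neither change passed over all probes (limma adjusted p = 0.32 and 0.28). A 2-fold change of the measured Igf1 signal, 1 unit on the log2 scale, lies outside all 4 intervals.

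Igfals, the acid-labile subunit that holds IGF1 in its long-lived plasma complex, read 7.55, 7.72, 7.14 and 7.31 in control and 7.36, 7.06, 7.20 and 7.54 in PFOS. The groups overlapped throughout, and the change was -0.14 (SE 0.15, 95% interval -0.47 to 0.19, limma adjusted p = 0.632), with the sign turned to 0.10 after scaling between arrays. It was -0.05 without control 2, -0.07 without PFOS 2, -0.24 without control 3 and -0.23 without PFOS 4. Igfbp3, the main plasma carrier of IGF1, changed by -0.16 (SE 0.11, 95% interval -0.41 to 0.09).

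Igfbp1, a binding protein that insulin represses and fasting induces, spread widely among controls, at 0.22, -1.71, 0.10 and -1.13, and less in PFOS, at -0.005, 0.61, 0.74 and -0.035. Control 2 and control 4 were low, control 1 and control 3 lay within the PFOS range, and the change of 0.96 (SE 0.42, 95% interval 0.02 to 1.90, limma adjusted p = 0.243) did not pass. Without control 2 it was 0.60. Cy5 alone gave 1.04 (SE 0.43) and Cy3 0.02. Of 7 tested genes of fasting and insulin action in liver, 5 had changes above 0 and 2 below, with a median of 0.11. Below 0 were Pdk4 (-0.58, SE 0.30) and G6pc1 (-0.003, SE 0.12). None of the 7 was called by limma in the ratio or in Cy5. Against 19.9% of all genes, 2 of the 7 had an unadjusted ratio p under 0.05, Trib3 and Tat, which were named after their values were seen. Trib3, a pseudokinase that binds AKT, read -1.26, -1.32, -0.93 and -1.09 in control and 0.43, -0.52, -0.01 and -0.78 in PFOS. All PFOS arrays were above all controls, with a change of 0.93 (SE 0.24, limma adjusted p = 0.0663) that passed without PFOS 4 (1.12, limma adjusted p = 0.0266). Tat, the tyrosine aminotransferase induced by glucocorticoids, changed by 0.84 (SE 0.25, limma adjusted p = 0.108), with groups that overlapped. In the same list Pck1, the first committed enzyme of gluconeogenesis, read 5.40, 4.80, 5.21 and 4.53 in control and 4.83, 5.12, 5.30 and 5.13 in PFOS. Control 2 and control 4 were thus also the low controls for Pck1, whose change was 0.11 (SE 0.19). Trib3 and Tat did not share this order: Trib3 was lowest in control 2 and control 1, and Tat in control 3. What set the order of arrays was not tested.

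Igfbp2, a binding protein known to be higher when growth hormone action is low, read -1.54, -1.09, -0.93 and -1.09 in control and -0.55, -0.61, -0.97 and -0.65 in PFOS at its brighter probe. Of the PFOS arrays, PFOS 3 alone lay within the control range, just below control 3. The change was 0.47 (SE 0.14, 95% interval 0.14 to 0.79, limma adjusted p = 0.12). The other probe read -2.16, -1.54, -1.56 and -1.48 against -1.11, -1.21, -1.40 and -1.06, with no overlap between the groups and a change of 0.49 (SE 0.15). Within slide rows 1 and 2 the brighter probe changed by 0.74 and 0.19. Neither probe passed, and control 1 was the lowest array on both. Igfbp4, an inhibitory binding protein, read 3.15, 3.36, 2.94 and 3.17 in control and 2.87, 3.36, 2.96 and 3.20 in PFOS. Its groups covered nearly the same range, and the change of -0.06 (SE 0.13, 95% interval -0.35 to 0.23) turned to 0.05 after scaling between arrays.

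A1bg, a plasma protein of the immunoglobulin superfamily that female rat liver expresses under continuous growth hormone, was the one member not well above background on every array. Its log2 ratios were 1.80, 4.81, 1.59 and 2.12 in control and 0.85, 0.56, 0.17 and 0.46 in PFOS. All PFOS arrays were below all control arrays, and control 2 stood far above the other controls. The probe was well above background on every control array but only on PFOS 1 and PFOS 2 among the treated. The change of -2.07 (SE 0.62, 95% interval -3.47 to -0.68, limma adjusted p = 0.108) did not pass. Without control 2 it was smaller but called, at -1.33 (SE 0.18, limma adjusted p = 0.00984), and it ranged from -4.005 with the scanner software's processed signals to -1.32 in Cy5 alone. With a normexp offset of 0 it was -3.33 and called (limma adjusted p = 0.042). Over every other setting and left-out array, slide rows alone aside, the limma adjusted p ran from 0.00984 to 0.202.

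The reference channel, the same RNA on every array, called 0.0789% of all genes, and Cy5 alone called 4.81%, among them Socs2 as 1 of the 10 members. In a fit of 30351 probes with no filter on brightness 1.77% were called, and of the 14 member probes the Socs2 probe passed (limma adjusted p = 0.0384).

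**Figure D2:**
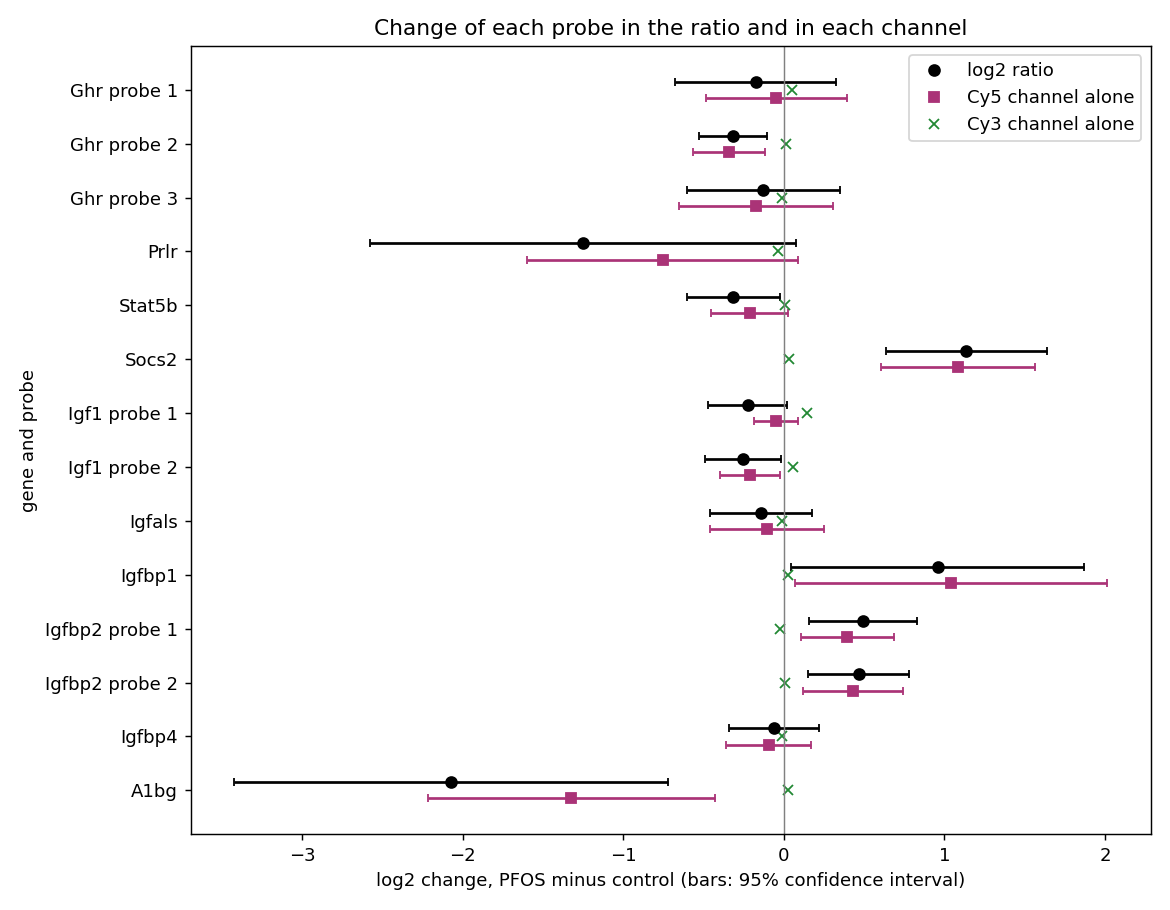
Log2 change, PFOS minus control (horizontal axis), of the 14 member probes in the ratio (black circles), in Cy5 alone (purple squares) and in Cy3 alone (green crosses), with 95% intervals from limma over all probes without a filter. Cy5 follows the ratio for Socs2, Igfbp1 and Igfbp2, is nearer to 0 for Prlr, A1bg and the first Igf1 probe, and every Cy3 change lies between -0.04 and 0.15.

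Other genes with higher expression in female than in male rat liver were set beside Prlr and A1bg. Of 8 tested genes 2 fell, none rose and 6 did not pass, against 2.14% of all genes called lower, with a median change of -0.59. Srd5a1, the steroid 5-alpha-reductase, read 3.89, 4.38, 3.59 and 3.78 in control and 3.11, 3.19, 3.04 and 3.07 in PFOS. The groups were apart, control 2 was highest, and Srd5a1 fell by 0.81 on the log2 scale (SE 0.15, limma adjusted p = 0.0218). It no longer passed when control 1, PFOS 1 or PFOS 3 was dropped (-0.81, -0.81 and -0.79), with median centring (-0.84) and with slide column as a block.

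Sult2a1, a hydroxysteroid sulfotransferase, read 8.54, 8.63, 7.97 and 8.70 in control and 7.29, 7.06, 7.75 and 7.51 in PFOS. Its ratio fell by 1.06 (SE 0.19, limma adjusted p = 0.0181) and its Cy5 signal by 2.14 (SE 0.32), with a Cy3 change of -1.07. The ratio turned to 0.37 and was not called with processed signals, and the call was also lost in the authors' deposited value table (-0.54), after scaling between arrays (-0.79), with a normexp offset of 0 (-0.36) and when control 1, control 2 or PFOS 1 was dropped (limma adjusted p = 0.0575, 0.0526 and 0.0525). Cyp2c12, the classic female-specific P450, read 9.03, 8.77, 8.94 and 7.71 in control and 5.71, 7.84, 7.26 and 5.11 in PFOS. PFOS 2 overlapped control 4, and the change of -2.14 (SE 0.57, limma adjusted p = 0.0792) did not pass. It passed without PFOS 2, at -2.59 (limma adjusted p = 0.0413). Probes of the P450 and sulfotransferase families can read near-identical copies, so the identity of these signals is uncertain.

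The array that was highest for Prlr, A1bg and Srd5a1, control 2, was also highest for Akr1b7, an aldo-keto reductase, at 6.17 against 3.49, -0.18 and 4.76 in the other controls. PFOS arrays read 1.49, 1.30, 0.13 and 1.19 for Akr1b7, whose change of -2.53 (SE 1.13, limma adjusted p = 0.251) did not pass. It was -1.66 without control 2 (limma adjusted p = 0.422), and -3.78 and called without control 3 (limma adjusted p = 0.0165). The Akr1b7 probe was well above background on only 3 control and 3 PFOS arrays, so the size of its change is uncertain. For Cyp2c12 control 2 was below control 1 and control 3, so these genes did not share 1 order of arrays.

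**Figure D3:**
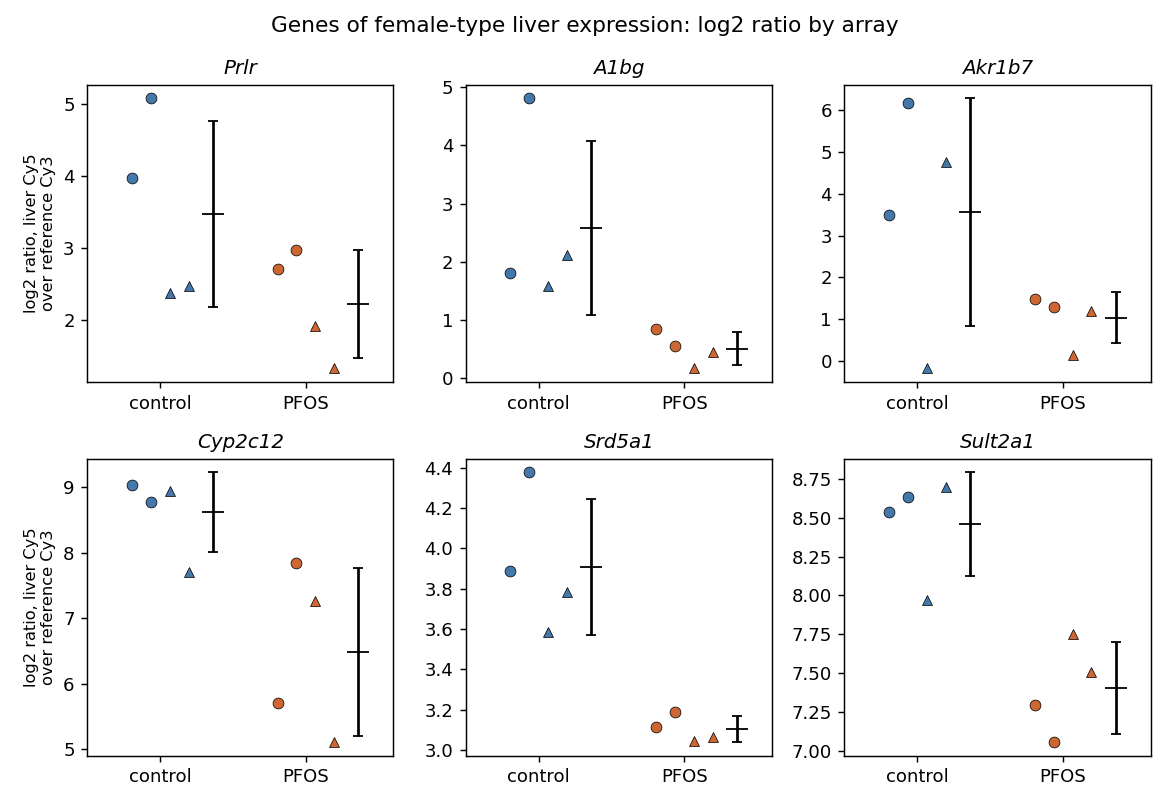
Log2 ratio (vertical axis, a separate scale for each gene) of Prlr, A1bg and 4 other genes of female-type liver expression on 4 control and 4 PFOS arrays, circles for slide row 1 and triangles for row 2, with group mean and SD. Control 2 is highest for Prlr, A1bg, Akr1b7 and Srd5a1, and PFOS arrays lie below all controls for A1bg, Srd5a1 and Sult2a1.

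Genes with higher expression in male rat liver gave 1 rise among 11 tested, against 1.84% of all genes called higher, and none called lower. Of the 11, 9 had changes above 0, and the median was 0.18 in the ratio and 0.58 in Cy5. In Cy5 alone, which called 4.81% of all genes in either direction, 2 of the 11 rose, Cyp3a2 and Hsd3b5, a male-type 3-ketosteroid reductase. They rose by 1.95 and 0.50 (limma adjusted p = 0.0115 and 0.0422), with Cy3 changes of 0.71 and 0.39. In the ratio Hsd3b5 changed by 0.12 (SE 0.10). Cyp3a2, which drug-sensing receptors also induce, rose by 0.99 (SE 0.18, limma adjusted p = 0.0191), a call lost with processed signals (0.27), with a normexp offset of 0 (0.45), after scaling between arrays (1.33) and without PFOS 1 or PFOS 3 (0.91 and 0.94). Cyp2c11, the main male-specific P450 and a target of pulsed growth hormone, read 8.27, 8.25, 8.12 and 8.36 in control and 8.63, 8.35, 8.37 and 8.58 in PFOS. Its change of 0.23 (SE 0.09, 95% interval 0.01 to 0.44, limma adjusted p = 0.221) did not pass, and in Cy5 it was 0.58 (SE 0.15, limma adjusted p = 0.061) with a Cy3 change of 0.34.

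The wider pathway was read from a list of 33 further genes of growth hormone, JAK-STAT5 and IGF signalling. Of these, 29 had a probe and 23 were tested, while Socs1, Igf1r, Igfbp5, Igfbp7, Ghrhr and Igfbpl1 were too dim. None of the 23 was called by limma in the ratio or in Cy5, and the median change was -0.08. An unadjusted ratio p under 0.05 was found for 5 of the 23, near the 19.9% of all genes.

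The ends of this list were a pair of growth hormone-responsive transcription factors with wide spread in both groups. Bcl6, a repressor that competes with STAT5, read -0.12, 1.40, 2.88 and 2.19 in control and 1.55, -0.30, 0.19 and -1.17 in PFOS. Its change was -1.52 (SE 0.69, limma adjusted p = 0.265). Onecut1, an activator of Cyp2c12, read 4.25, 3.01, 1.99 and 2.15 in control and 3.67, 4.21, 3.35 and 5.02 in PFOS, with a change of 1.21 (SE 0.51, limma adjusted p = 0.231). Control 1 had the lowest Bcl6 and the highest Onecut1 of the controls, and PFOS 4 the lowest Bcl6 and the highest Onecut1 of the PFOS arrays. Control 3 was the reverse, with the highest Bcl6 and the lowest Onecut1. The PFOS arrays had no such counterpart, since Bcl6 was highest in PFOS 1 and Onecut1 lowest in PFOS 3. Within slide row 1 Bcl6 changed by -0.01 and Onecut1 by 0.31, and within row 2 by -3.02 and 2.11.

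**Figure D4:**
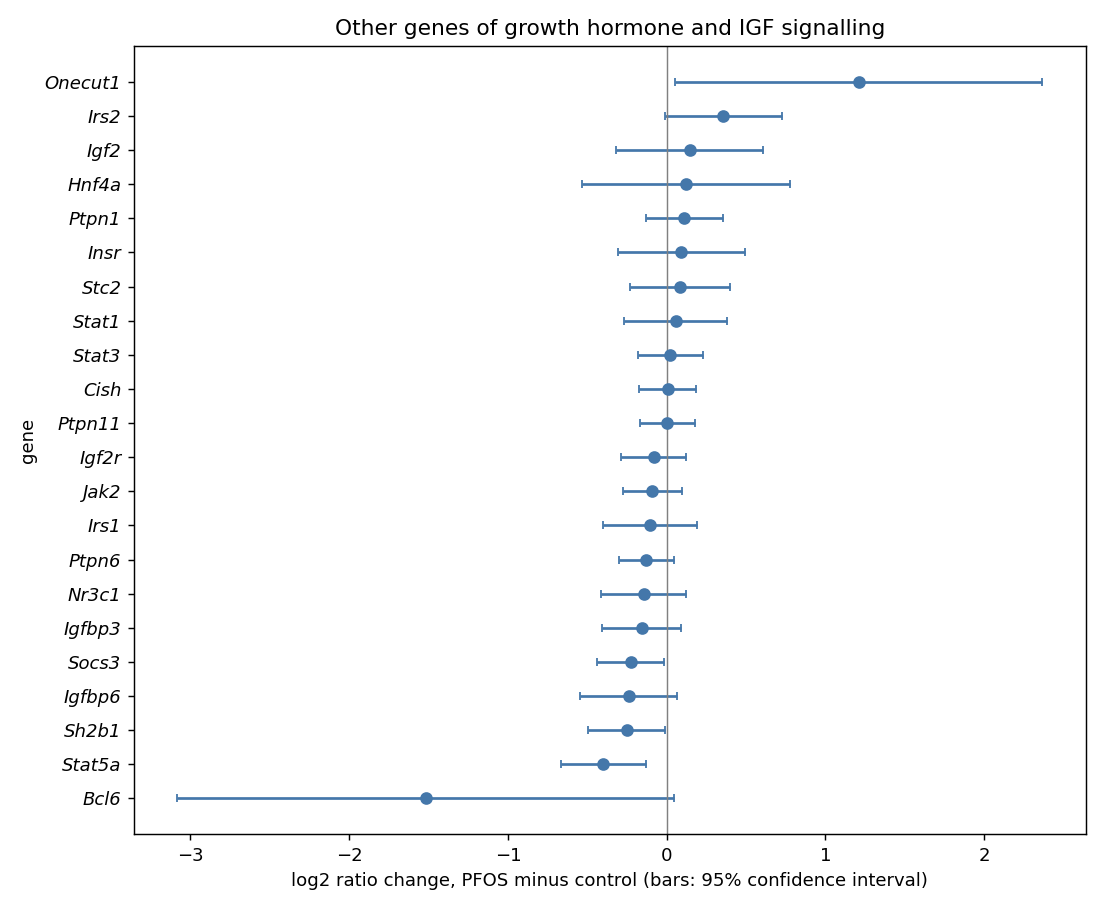
Log2 ratio change, PFOS minus control (horizontal axis), of 22 of the 23 tested genes of growth hormone and IGF signalling outside the 10 members, with 95% intervals from limma. No gene shown was called by limma, and the widest intervals are those of Bcl6 (change -1.52) and Onecut1 (change 1.21).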

How the data were processed

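Liver RNA of 4 control and 4 PFOS rats was measured on Agilent two-colour rat arrays, 1 per animal, with the sample in Cy5 and a reference in Cy3 per the labels. The deposited scanner files hold median spot intensity and local background, plus processed signals, written by Feature Extraction (Agilent) version 10.7.3.1, per the file headers. The headers give a scan resolution of 3 micrometres, unlike the design text. A value table deposited by the authors gives log2 ratios. Its columns correlated at 0.995 to 0.997 with loess-normalized ratios without background subtraction, which gave its scale and direction, and its medians were -0.048, -0.054, -0.052 and -0.057 for control 1 to 4 and -0.052, -0.061, -0.061 and -0.053 for PFOS 1 to 4, with the centring unknown.

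Background was corrected with normexp (offset 50), arrays were normalized by loess, outlier spots (733 to 991 per array) were left out, and spots of a probe were averaged. Single channels were quantile normalized. Probes were kept where Cy5 was well above background on 4 or more arrays (16947 with a value on every array), and the brightest probe stood for a gene. RefSeq symbols (GRCr8) were found for 18004 probes. Groups were compared with limma 3.58.1 in R 4.3.3 (two-sided, Benjamini-Hochberg), tested on simulated data, and the data.table package (version 1.17.8) read the files. Left-out arrays kept the same genes.

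The members, gene lists and rules were chosen with earlier results of these data known. Named were all members, called genes of the other lists, Cish, Igfbp3, Socs3, Jak2, Cyp2c11, Cyp2c12 and Pck1, and the 3 genes most like Igf1 and Socs2. Stat5a, Bcl6, Onecut1, Akr1b7, Trib3, Tat and Hsd3b5 were named after their values were seen, and 1 gene of the wider pathway list is not reported here. Replicate numbers follow accession order and pair nothing. Precision is limited by how many arrays there were, and the median SE of a log2 change was 0.109. Alternatives changed the background, normalization, channel, filter, probe rule, test, slide block and arrays. The fits within single slide rows were chosen after seeing the data.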

Additional observations from a re-analysis of the deposited data

Results flagged for a closer look

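In 58 groups of 4 arrays, covering 14 member probes and 15 other named genes, the array at 1 end was set against its nearest neighbour and the group's range, and 6 stood apart by Dixon's 95% critical value, which chance alone also passes in some groups. Ghr in PFOS 2 had a log2 ratio of 4.15 at its brightest probe, below 4.45 in the next array. A1bg in control 2 was at 4.81, above 2.12 in the next. Igfbp2 in control 1 was at -2.16 at its dimmer probe, below -1.56. Cish was at 1.04 in control 3, below 1.25, and at 1.14 in PFOS 3, below 1.23. Socs3 in PFOS 3 was at -0.459, above -0.668. No cause of these values was tested.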

How the results depend on the processing

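Of 15200 genes, 606 were called, and 239 with median centring, 384 after scaling between arrays, 268 with slide column as a block, 350 to 519 with 1 array left out (the lowest without control 1 and the highest without PFOS 4), and 93 and 32 within slide rows 1 and 2. The number of members called was 1, and 2 with a normexp offset of 0 (Socs2 and A1bg), 0 to 2 with 1 array left out, 0 within row 1 and 1 within row 2. Socs2 kept its direction in 21 other settings and left-out arrays, slide rows alone aside, and its call in 16 of them. Its call was lost in 5 of the 8 fits with an array left out and within slide row 1, and was kept within slide row 2. Uncalled values changed sign for Igfals after scaling between arrays (0.10) and within row 2 (0.14), for Igfals in Cy5 without control 1 (0.0035), and for Igfbp4 after scaling (0.047), within row 2 (0.026) and without control 2 (0.0094) or PFOS 1 (0.016). With 1 array left out Igfbp4 ran from -0.15 to 0.016 and Igfals in Cy5 from -0.21 to 0.0035. The cause of these changes was not tested. A1bg was not tested where all 8 arrays had to be well above background. No paired analysis was possible because replicate numbers carry no pairing in the labels. A1bg was limited by its signal over background in PFOS and by control 2.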

Other observations

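The genes whose log2 ratios, each less its mean over 8 arrays, lay nearest to a member by root mean square difference are a description of these arrays. For Igf1 they were Exoc1 (0.0579), Nsd2 (0.0716) and Slc39a14 (0.0749), with changes of -0.19, -0.21 and -0.14, none of them called by limma. For Socs2 they were Cebpb (0.246), Tob2 (0.27) and Shbg (0.297), with changes of 0.86, 0.73 and 0.75 and limma adjusted p-values of 0.0719, 0.0713 and 0.109.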
